A study of Mus musculus with 153 samples.

Results

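The genes described here are 10 members of the Ras signalling machinery whose transcripts were measured in mouse tail skin: the small GTPase genes Nras, Rras, Rras2 and Mras, the exchange factor genes Sos1 and Sos2, the GTPase activator genes Nf1 and Rasa1, the effector gene Rin1 and the scaffold gene Shoc2. They were chosen by name, with earlier results of these data known. All 10 were among the 18810 genes that the arrays measured with a probe set of a single gene symbol. The study took tail skin from untreated backcross mice at 8 weeks of age, with 1 array for each mouse. The mice with both copies of Hras (WT) were 52 females and 62 males, and the 37 mice that had lost 1 copy (HET) were 18 females and 19 males. The mice descend from Hras-null FVB/N females and Mus spretus males, whose daughters were bred to FVB/N males with 1 or both Hras copies inactive. Every mouse therefore carries FVB/N chromosomes from its father and a mixture of FVB/N and spretus from its mother. In this cross the working Hras copy of an F1 mother is the spretus one, so the spretus form of Hras and its surroundings on chromosome 7 was passed to every WT mouse but not to every HET mouse. Loss of an Hras copy and strain of origin around Hras cannot be told apart for genes of that chromosome that are inherited along with Hras. Rras and Rras2 also lie on chromosome 7, and how far either is inherited along with Hras was not measured. The loss is germline and present in all cells, no mouse in this series lacks both copies, and which tail skin cells a transcript came from was not measured.

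Ras proteins are switches at the inner face of the cell membrane that are on when bound to GTP and off when bound to GDP. Exchange factors such as the SOS proteins load GTP after growth factor receptors are engaged, and GTPase activating proteins such as neurofibromin, the product of Nf1, and RASA1 speed the return to the GDP form. Active Ras binds effectors, among them the RAF kinases that feed the MAP kinase cascade, and the pathway is known in mouse skin for its role in epidermal growth and in papillomas induced by chemical carcinogens.

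The first question was whether the transcripts of these Ras family genes and regulators differ between WT and HET skin. None of the 10 was called in limma, at a Benjamini-Hochberg adjusted p under 0.05 over all genes, with sex and plate in the same model. Among all genes 0.112% were called in that comparison, 0.0319% higher and 0.0797% lower in HET mice, so the absence of a call among 10 genes is near the background. The fitted differences, HET minus WT on the log2 scale, ran from -0.079 for Rras2 to 0.045 for Sos1, which is 1.06-fold and 1.03-fold. At an unadjusted p under 0.05 only Rras2 passed, against 6.57% of all genes. Upstream sequences of 5 members are shown here because the sections on variation between mice turn on these genes, Rras with Mras and Rasa1 with Sos1 and Shoc2. Each is the 250 bases before the RefSeq gene start (GRCm38.p6), written 5′ to 3′ on the strand of the gene. Capitals mark matches to GGGCGG (the GC box), CCAAT (the CCAAT box) or CCGGAA (the core bound by Ets factors), searched on both strands, and no marked matches overlap.
Rras, chr7:45017692-45017941, plus strand: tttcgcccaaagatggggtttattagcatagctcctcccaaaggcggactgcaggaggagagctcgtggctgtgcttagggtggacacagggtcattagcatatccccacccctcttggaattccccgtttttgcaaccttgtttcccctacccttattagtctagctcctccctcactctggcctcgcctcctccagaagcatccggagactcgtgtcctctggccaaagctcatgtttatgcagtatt
Mras, chr9:99436713-99436962, minus strand: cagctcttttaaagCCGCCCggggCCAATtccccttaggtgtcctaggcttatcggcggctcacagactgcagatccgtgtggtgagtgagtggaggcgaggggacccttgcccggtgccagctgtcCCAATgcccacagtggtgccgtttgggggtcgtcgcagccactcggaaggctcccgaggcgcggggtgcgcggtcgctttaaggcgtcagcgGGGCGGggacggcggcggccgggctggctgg
Sos1, chr17:80480454-80480703, minus strand: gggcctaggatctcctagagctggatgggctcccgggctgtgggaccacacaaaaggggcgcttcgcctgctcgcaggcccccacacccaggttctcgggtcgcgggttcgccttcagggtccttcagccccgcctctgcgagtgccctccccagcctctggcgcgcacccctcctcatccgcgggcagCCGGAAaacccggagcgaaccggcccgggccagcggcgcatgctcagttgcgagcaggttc
Rasa1, chr13:85289487-85289736, minus strand: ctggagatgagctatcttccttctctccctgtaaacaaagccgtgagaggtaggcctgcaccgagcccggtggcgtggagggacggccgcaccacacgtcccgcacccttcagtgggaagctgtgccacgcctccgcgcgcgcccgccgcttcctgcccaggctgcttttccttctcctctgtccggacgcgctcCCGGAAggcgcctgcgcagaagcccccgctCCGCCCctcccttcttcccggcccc
Shoc2, chr19:53944056-53944305, plus strand: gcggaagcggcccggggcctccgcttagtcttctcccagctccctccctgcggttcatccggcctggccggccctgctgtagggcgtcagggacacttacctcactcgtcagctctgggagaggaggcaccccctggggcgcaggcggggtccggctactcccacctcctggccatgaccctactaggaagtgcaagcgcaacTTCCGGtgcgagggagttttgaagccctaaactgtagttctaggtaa

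Among the 27025 promoter windows of that length in the RefSeq table, GGGCGG was present in 33%, CCAAT in 34.5% and CCGGAA in 12.3%. Of the 10 members, 5 held GGGCGG (Nras, Rras2, Mras, Sos2 and Rasa1), Mras alone held CCAAT, and 4 held CCGGAA (Sos1, Nf1, Rasa1 and Shoc2). Rras held none of these motifs, while Mras held 2 matches each to GGGCGG and CCAAT. None of the 10 windows held TATAAA (the TATA box, in 13% of all windows), CACCTG (an E-box, 17.1%), TGANTCA (the AP-1 motif, 6.85%) or the Ebf motif (0.773%). The median GC content was 66.4% over the members and 52% over all windows, with Nras lowest at 48.4% and Sos2 highest at 82.8%. The motifs were picked after the values had been seen, and a match describes the letters of a window, not binding.

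Of the GTPase genes, Nras encodes one of the classical Ras proteins. Its log2 level in WT mice had a lowest value of 8.25, a median of 8.58 and a highest value of 8.82. In HET mice these were 8.32, 8.52 and 8.73. The HET values lay wholly within the WT range, and the difference was -0.034 ± 0.021 (SE, limma adjusted p = 0.84).

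Rras encodes R-Ras, a GTPase that raises integrin-mediated adhesion and is prominent in blood vessels. Its level ran from 8.44 through a median of 9.04 to 9.78 in WT mice, and from 8.20 through 8.95 to 9.61 in HET mice. A HET mouse of plate 3 had the lowest level of all, and the groups otherwise overlapped. The difference was -0.043 ± 0.051 (SE, adjusted p = 0.93). Within plates 1, 2 and 3 it was -0.050, 0.067 and -0.11, which differ in sign.

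Rras2 encodes TC21, a relative of R-Ras that shares effectors with the classical Ras proteins. It lay between 5.24 and 6.54 with a median of 5.92 in WT mice, and between 5.47 and 6.12 with a median of 5.85 in HET mice. The HET values again fell inside the WT range. Its difference of -0.079 ± 0.037 (SE) was the largest in size of the 10, with an unadjusted limma p of 0.035 and an adjusted p of 0.73. By plate it was -0.13, 0.0068 and -0.11, and limma's test of unequal genotype differences between plates gave an unadjusted p of 0.33 (adjusted p = 0.81).

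Mras encodes M-Ras, which in its GTP-bound form joins SHOC2 and protein phosphatase 1 in a complex that activates RAF. Its level ran from 6.05 through 6.51 to 7.10 in WT mice and from 5.71 through 6.51 to 7.19 in HET mice. HET mice held both extremes, and the medians coincided. The difference was 0.014 ± 0.044 (SE, adjusted p = 0.99). Mras was the only member with more than 1 probe set: the other, with a mean of 5.15, gave 0.038 ± 0.058 (SE, adjusted p = 0.95) in a fit over all probe sets, of which 0.082% were called for genotype and 2.54% for sex. The residuals of both sets correlated at 0.39 over the mice.

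The SOS proteins are the exchange factors that couple activated receptors to Ras through the adaptor GRB2. Sos1 lay between 6.80 and 7.45 (median 7.16) in WT mice and between 6.92 and 7.37 (median 7.17) in HET mice. Its difference of 0.045 ± 0.025 (SE) had an unadjusted limma p of 0.073 and an adjusted p of 0.80, and it was positive on each plate (0.055, 0.017 and 0.057). Sos2 lay between 6.82 and 8.00 (median 7.49) in WT mice and between 7.32 and 7.75 (median 7.48) in HET mice. For Sos2 the difference was 0.0014 ± 0.031 (SE, adjusted p = 1). HET levels of both genes lay within the WT range.

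In the GTPase activator genes the groups overlapped in the same way. Nf1 encodes neurofibromin, the tumour suppressor lost in neurofibromatosis. It ran from 6.60 through 7.05 to 7.35 in WT mice and from 6.74 through 7.08 to 7.32 in HET mice, a difference of 0.023 ± 0.027 (SE, adjusted p = 0.93). Rasa1 encodes p120 RasGAP, which docks on tyrosine-phosphorylated receptors. It ran from 8.12 through 8.48 to 8.79 in WT mice and from 8.09 through 8.48 to 8.78 in HET mice, a difference of -0.0070 ± 0.024 (SE, adjusted p = 0.99). For Rasa1 the lowest level of all was that of a HET mouse.

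RIN1 is a Ras effector that competes with RAF for active Ras, activates RAB5 in endocytosis and stimulates ABL kinases. Rin1 ran from 4.65 through 5.40 to 6.20 in WT mice and from 4.83 through 5.44 to 5.92 in HET mice. HET values lay inside the WT range, and the difference was 0.030 ± 0.055 (SE, adjusted p = 0.96). SHOC2 is the leucine-rich scaffold of the M-Ras phosphatase complex. Shoc2 ran from 8.48 through 8.74 to 8.97 in WT mice and from 8.53 through 8.74 to 8.92 in HET mice, a difference of -0.0044 ± 0.020 (SE, adjusted p = 0.99).

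**Figure D1:**
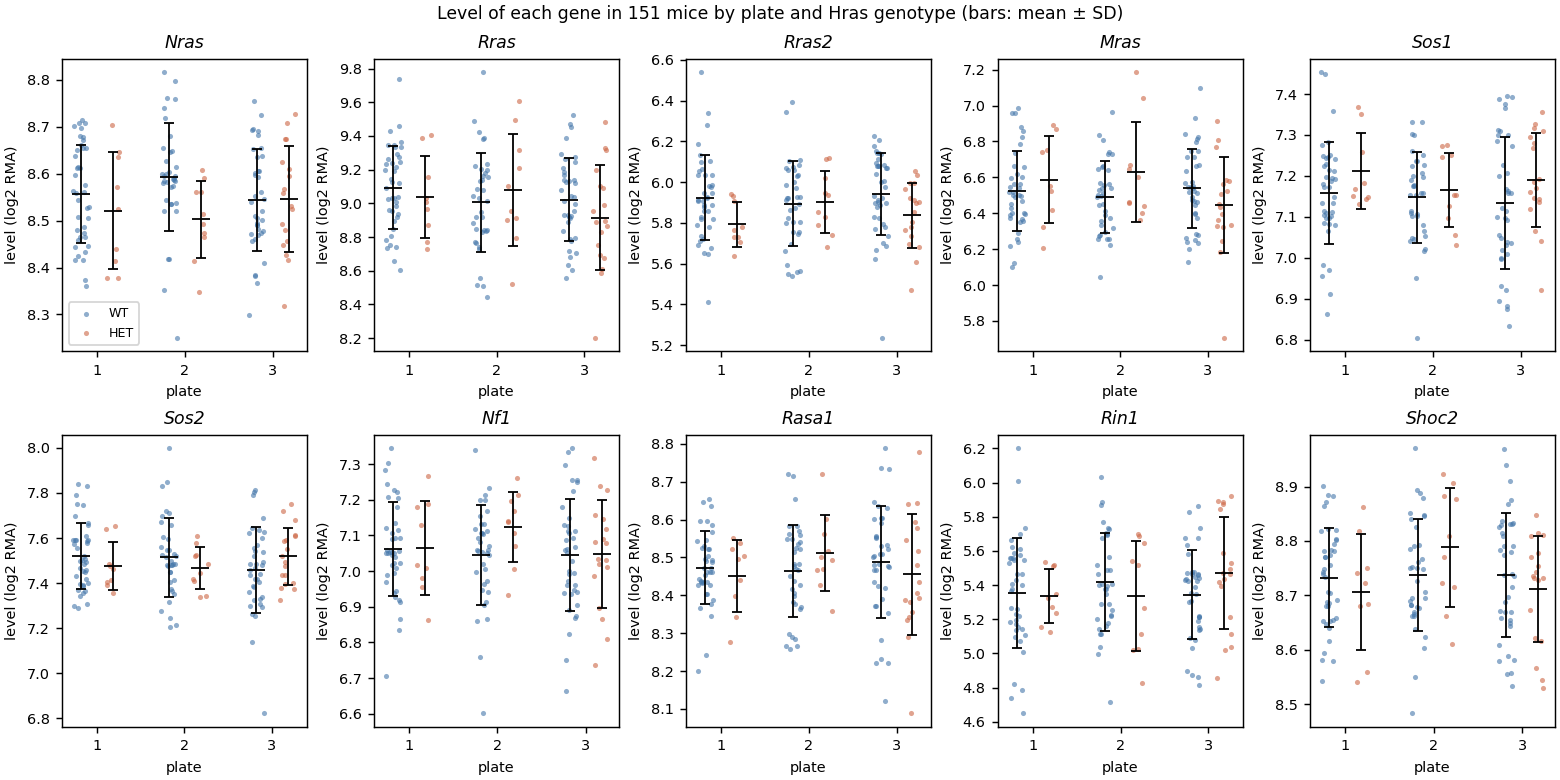
Log2 RMA level of each of the 10 genes (vertical axes, with a scale of their own) by plate (horizontal axes), with 1 point for each mouse, WT in blue and HET in orange, and bars at the mean ± SD. HET and WT points overlap on every plate for each gene, and plate means of a gene stay close together, as for Rras at 9.08, 9.02 and 8.99.

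The 95% intervals set limits on what could have been missed. For Nras the interval of the HET minus WT difference ran from -0.077 to 0.0081, for Shoc2 from -0.044 to 0.035 and for Rasa1 from -0.055 to 0.041. The widest intervals were those of Rin1 (-0.080 to 0.14) and Rras (-0.14 to 0.057). These bounds do not show that the levels are alike. The terms for a genotype difference that depends on sex called none of the 10 genes, and 0% of all genes (0 of 18810, 4.76% at an unadjusted p under 0.05). Genotype by plate likewise called none of the 10 (0% of all genes, 9.07% unadjusted), and the smallest unadjusted p among the members was 0.074 for Mras, whose difference was 0.067, 0.13 and -0.093 on plates 1, 2 and 3.

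Levels were close across plates. The F test over the 3 plates called none of the 10 genes, against 0.0213% of all genes. Only 0.808% of all genes had an unadjusted p under 0.05 in that test, and whether the values were adjusted for plate before deposit is not known. Plate means of Nras were 8.55, 8.57 and 8.55 and those of Rras 9.08, 9.02 and 8.99, the largest spread of plate means among the 10. Plates 1, 2 and 3 held 9, 10 and 18 HET mice, and plate was a term of the models unless stated otherwise.

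The second question was whether the members differ between males and females. None of the 10 was called, against 3.62% of all genes, but Rras came closest. Its level in females ran from 8.52 through a median of 9.11 to 9.78 and in males from 8.20 through 8.95 to 9.49. The ranges overlapped over most of their length, with the male values shifted down. The difference, male minus female, was -0.12 ± 0.044 (SE, log2, 1.09-fold), with an unadjusted limma p of 0.0073 and an adjusted p of 0.11. It was -0.10, -0.13 and -0.12 on plates 1, 2 and 3, and a sex difference that varied by plate was found for none of the 10 genes (0% of all genes, 5.74% at an unadjusted p under 0.05).

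With scores of skeletal muscle, adipocyte and dermal fibroblast markers in the model, the Rras difference was again -0.12 and passed (adjusted p = 0.024). It also passed with the first principal component of the residuals as a covariate (-0.12, adjusted p = 0.0011). That component is uncorrelated with sex by construction, so it could change the error but not the size. Marker scores of 8 cell types were positive with Rras between mice, and the median difference of their genes in males was below 0 for 7 of these lists, from -0.24 (adipocyte) to -0.059 (endothelial), and 0.063 for dermal fibroblasts. Of all genes, 2.51% were called lower in males and 1.1% higher. No endothelial gene of 7 was called, 4 of 7 mast cell genes were lower, and of 6 dermal fibroblast genes 3 were higher and 1 lower. Apart from the fit with muscle, adipocyte and fibroblast scores, in which the difference stayed at -0.12, the part of these lists was not tested.

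Shoc2 differed by -0.039 ± 0.017 (SE, unadjusted limma p = 0.024, adjusted p = 0.22), from a median of 8.75 in females to 8.73 in males. Rin1 had the largest positive difference at 0.090 ± 0.048 (SE, adjusted p = 0.34), with medians of 5.39 in females and 5.45 in males, and it was not positive on every plate (-0.016, 0.076 and 0.19). Nf1 differed by -0.041 ± 0.023 (SE, adjusted p = 0.38). The other 6 genes lay between -0.046 for Mras and 0.014 for Nras. Over the 10 genes the median difference was -0.035, with 3 above 0, and over all genes it was -0.0060.

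**Figure D2:**
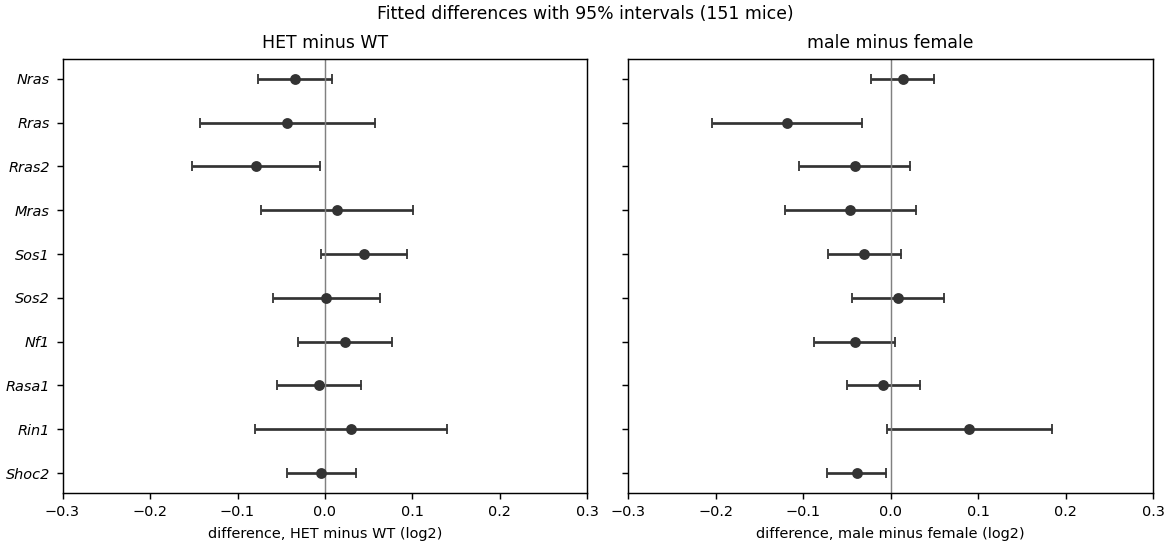
Fitted differences of the 10 genes on the log2 scale, HET minus WT on the left and male minus female on the right, as points with 95% intervals from limma over all mice. For genotype only the interval of Rras2 (-0.15 to -0.0058) leaves out 0, and for sex those of Rras (-0.20 to -0.032) and Shoc2 (-0.073 to -0.0052), none of which passed after adjustment.

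The wider pathway gave the same picture for genotype and a few calls for sex. Lists of exchange factors, GTPase activators, receptor adaptors, effectors, MAP kinase module genes, SHOC2 and M-Ras partners, RIN1 partners, related small GTPases and Ras lipid-processing enzymes held 74 measured genes beside the 10 members. In HET against WT skin limma called 0 of the 74, of which 3 had an unadjusted p under 0.05, with a median difference of -0.0018. In males against females 5 were lower and 0 higher, against 2.51% and 1.1% of all genes, with a median of -0.020.

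Rerg, an oestrogen-regulated inhibitory relative of Ras, ran from 6.16 through 6.64 to 7.21 in females and from 5.82 through 6.41 to 6.86 in males. The difference was -0.26 ± 0.039 (SE, 1.19-fold lower in males, limma adjusted p = 2.6e-07), and plates 1, 2 and 3 gave -0.17, -0.30 and -0.29. It was the strongest of the 5. Zdhhc9, the catalytic subunit of the enzyme that palmitoylates Ras, fell by 0.17 ± 0.043 (SE, adjusted p = 0.011) in males. The RAF kinase genes Araf and Braf were also lower in males, with differences of -0.098 ± 0.027 (SE, adjusted p = 0.017) and -0.087 ± 0.025 (SE, adjusted p = 0.024). Plce1, a Ras-activated phospholipase C gene, differed by -0.24 ± 0.074 (SE, adjusted p = 0.043). Whether each of these genes lies on the X chromosome or on an autosome was not taken into account in this comparison of the sexes. The count of 5 depended on the setting. After median centring of the arrays it was 2, and it was 1 without plate 1, 1 without plate 2 and 3 without plate 3.

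The third question was how the members vary between mice once genotype, sex and plate are removed. In this residual variation Shoc2 was among the least variable genes of the array, with a residual SD of 0.10 that lay at the 1.00th percentile of all genes. Nras (0.11, percentile 1.87), Rasa1 (0.13, percentile 4.89), Sos1 (0.13, percentile 5.16) and Nf1 (0.14, percentile 8.87) also varied little. Sos2 (0.16, percentile 17.1) and Rras2 (0.19, percentile 33) were intermediate. Mras (0.23, percentile 54.2), Rras (0.27, percentile 71.3) and Rin1 (0.29, percentile 79.1) varied most. These SDs are on the log2 scale and include array error.

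Of the 45 pairs of members, 12 correlated across mice at a permutation p under 0.05 after Benjamini-Hochberg adjustment over the pairs, 9 positively and 3 negatively. The weakest of these had an r of 0.21 in size. Among all pairs of genes on the array 7.75% reached that size, 4.63% positively and 3.12% negatively. Nras was in none of the 12 pairs, with r from -0.099 to 0.13 against the other members. Rasa1 was in 5, and Sos2, Nf1 and Rin1 in 3 each. Of the 12, 11 kept one sign on all 3 plates, the exception being Rras2 with Sos2 (r = 0.21, rho = 0.20, adjusted permutation p = 0.030 and 0.047), which gave 0.19, 0.52 and -0.0097 on plates 1, 2 and 3. Without plate 1 that pair had an r of 0.22 (adjusted permutation p = 0.11) and without plate 2 of 0.078 (0.64), and it no longer passed.

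Rras and Mras formed the most strongly correlated pair. Their Pearson r was 0.57 and Spearman's rho 0.51, each with an adjusted permutation p of 0.00015. The unadjusted p of 1e-05 is the smallest that 100000 draws can give. Leaving out the 2 mice with the most extreme Rras levels gave an r of 0.55, and on plates 1, 2 and 3 it was 0.32, 0.67 and 0.68. Nf1 joined this pair, with an r of 0.43 against Mras (rho = 0.45, adjusted permutation p = 0.00015 for both) and of 0.34 against Rras (r, adjusted permutation p = 0.00022; rho = 0.40, 0.00015). The 3 genes varied together from mouse to mouse with a positive sign on every plate. Against the first principal component of the residuals, which held 8.40% of the variance of all genes, r was 0.80 for Rras, 0.67 for Mras and 0.45 for Nf1. With that component as a covariate the r of Rras and Mras was 0.081 (adjusted permutation p = 0.48), that of Mras and Nf1 0.20 (0.056) and that of Rras and Nf1 -0.035 (0.76), so none of the 3 correlations passed.

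A different set of members was joined by Rasa1. Sos1 and Sos2, the paralogous exchange factor genes, correlated at 0.36 (rho = 0.28, adjusted permutation p = 0.00015 and 0.0028), with 0.21, 0.34 and 0.46 on the plates. The correlation was 0.41 in WT mice and 0.039 in the fewer HET mice, and the difference between these values was not tested. Rasa1 correlated with Sos1 at 0.35 (rho = 0.32, adjusted permutation p = 0.00022 and 0.00063) and with Sos2 at 0.35 (rho = 0.31, adjusted permutation p = 0.00026 and 0.0010). On plates 1, 2 and 3 these were 0.53, 0.042 and 0.42 for Sos1 and 0.043, 0.23 and 0.56 for Sos2, so the strength of both differed from plate to plate. Rasa1 also correlated with Shoc2 at 0.34 (rho = 0.33, adjusted permutation p = 0.00022 and 0.00063), with 0.043, 0.29 and 0.51 on the plates. Without plate 3 the r with Sos2 was 0.16 (adjusted permutation p = 0.26) and that with Shoc2 0.19 (0.17), and neither passed. The first principal component had r of -0.12, 0.013, -0.037 and 0.060 with Sos1, Sos2, Rasa1 and Shoc2. With it as a covariate the pairs Sos1 and Sos2, Sos1 and Rasa1, Sos2 and Rasa1 and Rasa1 and Shoc2 kept r of 0.36, 0.35, 0.35 and 0.34.

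The activator genes Nf1 and Rasa1 correlated with each other at 0.23 (rho = 0.21, adjusted permutation p = 0.022 and 0.047). The r was 0.24, 0.23 and 0.22 without plates 1, 2 and 3, none past the threshold in those fewer mice (adjusted permutation p = 0.072, 0.074 and 0.12). All 3 negative correlations involved Rin1. It correlated at -0.31 with Shoc2 (rho = -0.31, adjusted permutation p = 0.00067 and 0.00082), with -0.32, -0.46 and -0.18 on the plates, so it tended to be low in mice with high Shoc2. Without plate 2 this was -0.24 (adjusted permutation p = 0.054). Rin1 also correlated at -0.24 with Rras2 (rho = -0.27, adjusted permutation p = 0.019 and 0.0042) and at -0.21 with Rasa1 (rho = -0.21, adjusted permutation p = 0.030 and 0.038). Without plate 1 both were -0.18 and did not pass (adjusted permutation p = 0.23 and 0.24). Rin1 with Rras2 also missed the threshold without plate 2 (-0.22, adjusted permutation p = 0.081), and Rin1 with Rasa1 without plate 3 (-0.18, 0.19) and with both outlier-labelled arrays included (-0.19, 0.081).

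**Figure D3:**
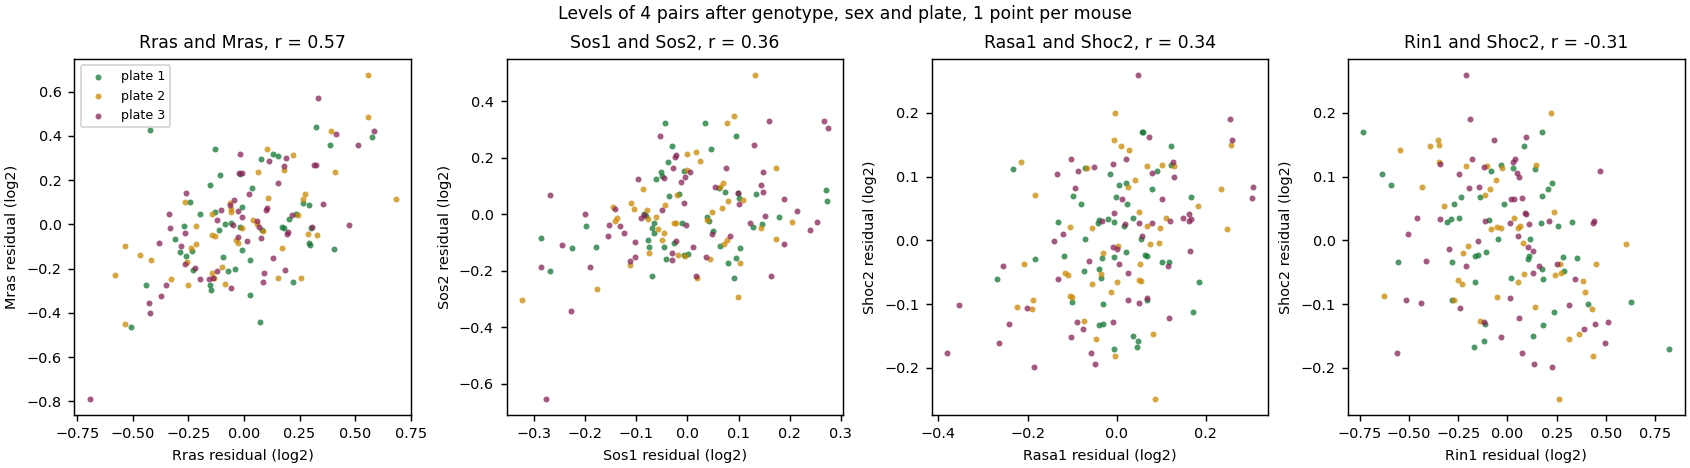
Residual log2 levels of 4 pairs of members after genotype, sex and plate, with 1 point for each mouse coloured by plate. Rras and Mras (r = 0.57), Sos1 and Sos2 (0.36) and Rasa1 and Shoc2 (0.34) slope upward and Rin1 and Shoc2 (-0.31) slopes downward, with wide scatter in all but the first.

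To see which cell types the variation of each member followed, scores of 14 lists of cell type markers, each the mean standardised residual of its measured genes, were set against the members. In whole tail skin fewer cells of a type and less RNA per cell cannot be told apart. Epidermal markers were present in every mouse. The mean log2 level of the 7 basal keratinocyte markers ran from 9.72 to 10.3 over WT mice and from 9.72 to 10.2 over HET mice, and that of the 5 measured markers of differentiated epidermis from 10.5 to 11.3 and from 10.6 to 11.2. Of the 140 relations 26 were positive and 14 negative at an adjusted permutation p under 0.05. The share of all genes that would pass with these scores was not computed, so these relations cannot be called particular to the members.

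Rras varied with markers of several cell types outside the epidermis. Its strongest relation was with the endothelial score (r = 0.79, rho = 0.77, adjusted permutation p = 7e-05), with 0.75, 0.88 and 0.75 on the plates and 0.77 when the 2 mice with the most extreme endothelial scores were left out. That list held 7 of 7 measured markers, none with a mean below the lower quartile of the arrays, and their mean level ran from 5.44 to 6.92 in WT and from 5.37 to 6.81 in HET mice. The scores of macrophages and dendritic cells (0.66), Schwann cells (0.65), dermal fibroblasts (0.65) and mast cells (0.61) came next. The Schwann score rests on 3 of 7 markers. Cartilage, bone and tendon (0.48), skeletal muscle (0.37) and adipocyte (0.37) scores were positive too, each with an adjusted permutation p of 7e-05. The lowest was that of differentiated epidermis (r = -0.52, rho = -0.53, adjusted permutation p = 7e-05), negative on every plate (-0.34, -0.73 and -0.47).

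Mras and Nf1 also had scores from outside the epidermis at the top and differentiated epidermis at the bottom, at lower r. The cartilage, bone and tendon score had r of 0.48 with Mras and 0.28 with Nf1, and that of skeletal muscle 0.38 and 0.31. Macrophage and dendritic cell (0.058), adipocyte (0.063) and mast cell (0.18) scores did not pass by r with Nf1, though they did with Rras and Mras. By rho the mast cell score passed with Nf1 (0.22, adjusted permutation p = 0.029). For Mras the endothelial score was highest (r = 0.63, rho = 0.61) and differentiated epidermis lowest (-0.48, rho = -0.51), each with an adjusted permutation p of 7e-05. For Nf1 the Schwann score was highest (r = 0.43, rho = 0.46), just above the endothelial score (0.42), and differentiated epidermis was again lowest (-0.32, rho = -0.31, adjusted permutation p = 0.00033). The first principal component itself had r of 0.86 with the endothelial score, 0.80 with the fibroblast score and -0.64 with that of differentiated epidermis. With the skeletal muscle, adipocyte and dermal fibroblast scores together as covariates, r was 0.33 for Rras and Mras and 0.29 for Mras and Nf1. For Rras and Nf1 it was 0.16. How far each single cell type carries the correlation of Rras, Mras and Nf1 was not tested.

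Rin1 varied with epidermal markers. Its highest relation was with the basal keratinocyte score (r = 0.50, rho = 0.47, adjusted permutation p = 7e-05), with 0.38, 0.70 and 0.42 on the plates, and it was also positive with differentiated epidermis (0.29). Its lowest was with the mast cell score (-0.30, rho = -0.25, adjusted permutation p = 0.00078 for r), which was uneven at -0.33, -0.48 and -0.085 on plates 1, 2 and 3. Epidermal scores, which were negative with Rras and Mras, were thus positive with this effector gene. For basal keratinocytes the negative r of Rras (-0.26) was uneven, at -0.10, -0.64 and -0.012 on plates 1, 2 and 3. That of Mras (-0.26) was -0.40, -0.34 and -0.090. Shoc2 had its lowest relation with the basal keratinocyte score (-0.24, rho = -0.24, adjusted permutation p = 0.013), although on plate 3 that value was 0.037, and its highest with the mast cell score (0.21, adjusted permutation p = 0.035).

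For the exchange factor genes the relations were weaker. Sos2 was negative with the score listed as hair shaft (r = -0.31, rho = -0.35, adjusted permutation p = 0.00038), on every plate (-0.42, -0.18 and -0.35). The genes of that list were Krt25, Krt27, Krt28, Krt71, Krt73, Tchh and Foxn1, mostly genes of the inner root sheath of the hair follicle rather than of the shaft. Sos2 was positive with the sebaceous gland score (0.26, rho = 0.25, adjusted permutation p = 0.0068). Sos1 was lowest with the macrophage and dendritic cell score (-0.22, rho = -0.19, adjusted permutation p = 0.024 and 0.062), where rho did not pass. The dermal fibroblast score was close to it (-0.22, rho = -0.21, adjusted permutation p = 0.025 and 0.031). The highest relation of Sos1, with the sebaceous gland (0.13), did not pass. Rras2 passed with the dermal fibroblast score alone (r = 0.21, adjusted permutation p = 0.043), where rho was 0.14. Nras and Rasa1 passed with none of the 14 lists.

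**Figure D4:**
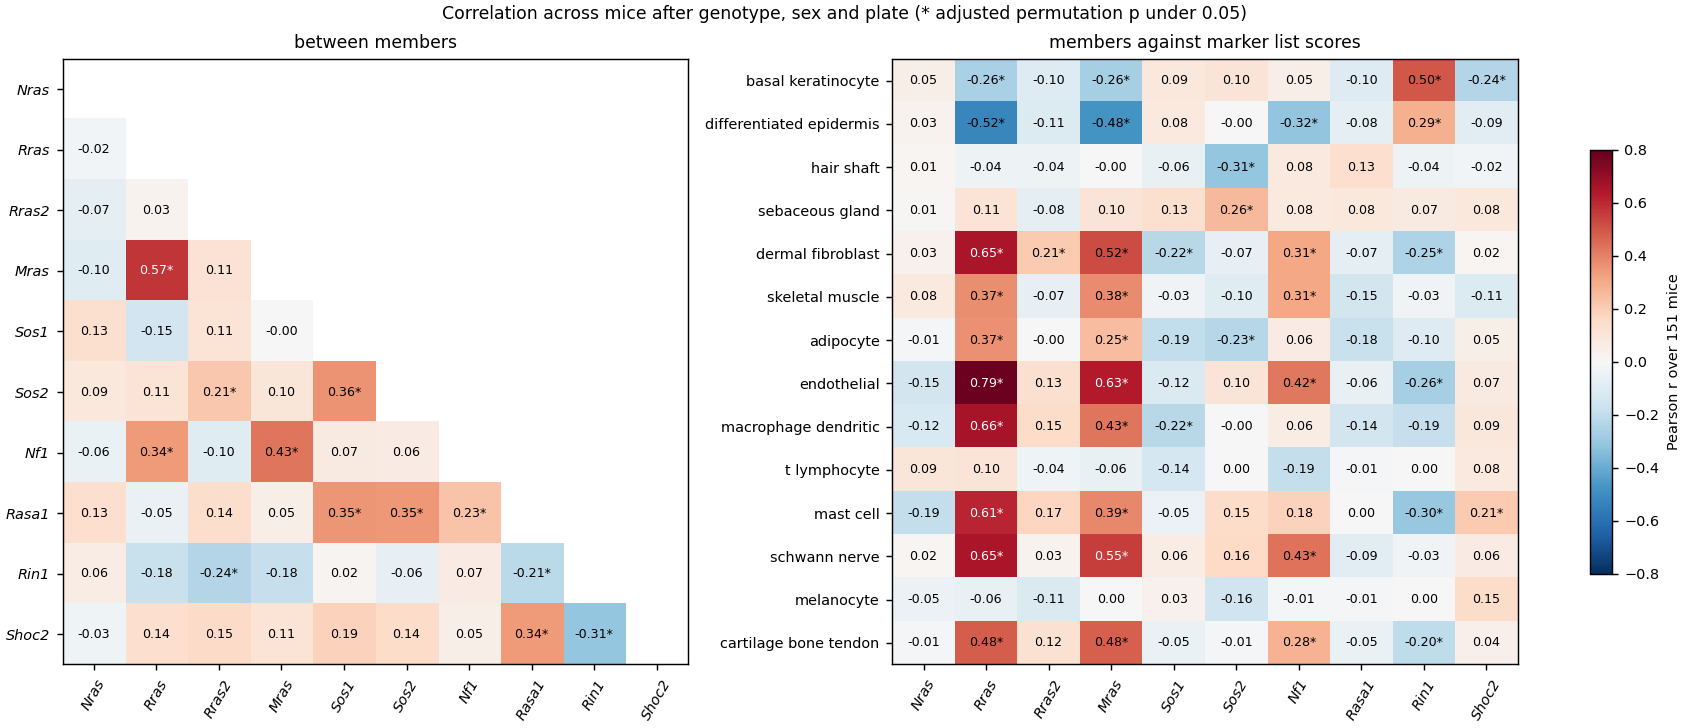
Pearson r over all mice after genotype, sex and plate, between the 10 members (left) and between members and 14 marker list scores (right), with an asterisk where the adjusted permutation p is under 0.05. Rras, Mras and Nf1 are red for endothelial (0.79, 0.63 and 0.42) and blue for differentiated epidermis (-0.52, -0.48 and -0.32), and Rin1 has its highest value with basal keratinocytes (0.50).

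The number of genes that varied with a member separated the members further. In limma fits with the member's level as a covariate beside genotype, sex and plate, 5650 of the other genes were called for Rras (30%) and 3989 for Mras (21.2%). For Nf1 there were 3580 (19%), for Sos2 2370 (12.6%), for Rin1 1918 (10.2%) and for Rasa1 1447 (7.69%). Rras2 had 919 (4.89%), Sos1 708 (3.76%), Shoc2 408 (2.17%) and Nras 13 (0.0691%). The levels of Rras and Mras varied with those of many genes and the level of Nras with few. With the first principal component as a covariate Rras had 700 and Mras 0, with 1491 genes at an unadjusted p under 0.05 for Mras. After median centring of the arrays the numbers were 8631 for Rras and 1615 for Nras, both higher, and 3004 for Nf1, which is lower.

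**Figure D5:**
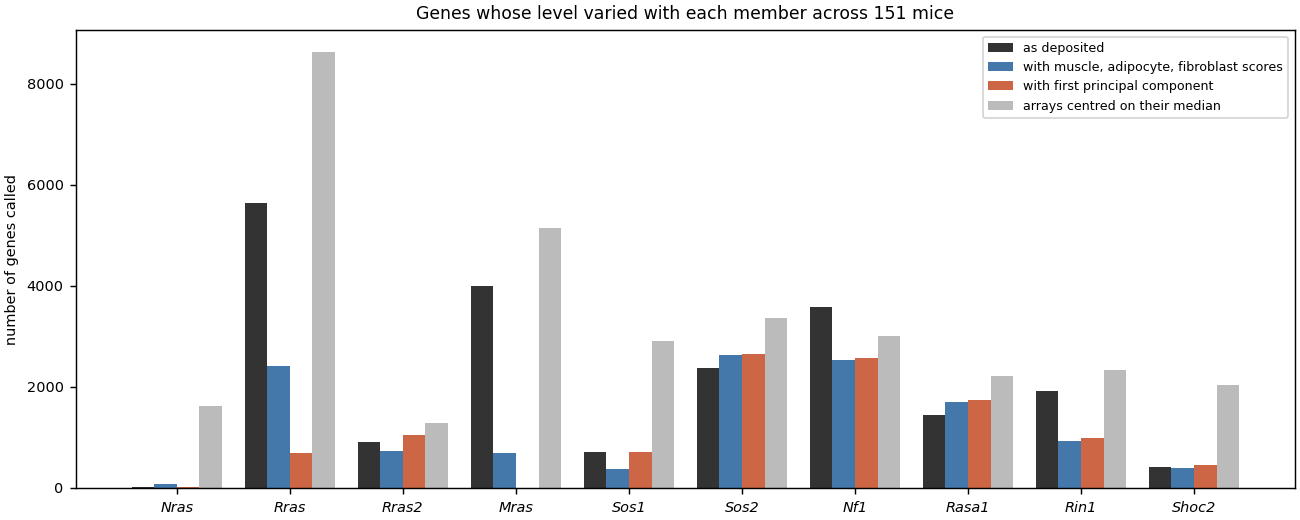
Number of other genes called in limma as varying with each of the 10 members over all mice, as bars from 0, under the values as deposited and under 3 other settings named in the key. Rras leads as deposited (5650) and Nras has 13, and the first principal component as a covariate takes Rras to 700 and Mras to 0.

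The genes most like each member, by Pearson r of residuals over all mice, were read from these fits, whose limma adjusted p covers all genes. For Rras they were Ebf1 and Zeb1, transcription factors of mesenchymal cells among others (both r = 0.80), and Pmp22, a myelin protein gene that is also in the Schwann list (0.78). The most opposed was Evpl, which encodes envoplakin of the cornified envelope (-0.61), and then Rab24 (-0.60). For Mras they were Rbpms, an RNA-binding protein gene (0.66), Fermt2, which encodes the integrin activator kindlin-2 (0.66), and Dennd5a (0.64), with Ablim1 (-0.53) and Myo6 (-0.51), which like Mras lies on chromosome 9, at the other end. For Nf1 they were Pkd1, which encodes polycystin-1 (0.65), the receptor gene Fgfr1 (0.64) and the Hedgehog pathway factor gene Gli3 (0.63), with the protease gene Tmprss13 (-0.62) and Cldnd1 (-0.61) opposed. All of these had an adjusted p of 3.1e-09 or less.

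For Sos1 the most alike genes were Trim33 (0.50), Fbxo11, which like Sos1 lies on chromosome 17 (0.47), and the SUMO protease gene Senp6 (0.46). Nnt (-0.39) and Clec11a (-0.37) were opposed. Senp6 was also among the most alike of Rasa1 (0.55), with Fnbp1l (0.55) and Erbin (0.55), which like Rasa1 lies on chromosome 13, and Ipo13 (-0.44) and Adam15 (-0.43) opposed. ERBIN is a leucine-rich protein that binds the SHOC2 complex and restrains RAF activation. It was called with Sos1 (0.45), Sos2 (0.47) and Rasa1, 3 of the members that correlated with each other. For Sos2 the most alike were Ube2e2 (0.57), the clock-output factor gene Hlf (0.56) and the kinase gene Nek7 (0.56), with Ints3 (-0.47) and Slc39a10 (-0.46) opposed. The limma adjusted p of the genes named here for Sos1, Rasa1 and Sos2 was 0.0016 or less.

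For Rin1 the most alike were the semaphorin receptor gene Plxnb1 (0.55), the anion exchanger gene Slc4a2 (0.52) and Il17re, an epithelial receptor gene for IL-17C (0.52). Pfn2 (-0.45) and Tax1bp1 (-0.45) were opposed. For Rras2 they were Spcs3, a signal peptidase subunit gene (0.52), Fnip1 (0.48) and Tmbim4 (0.47), with the chromatin remodeller gene Smarca4 (-0.40) and Ikbke (-0.39) opposed. For Shoc2 they were the translation factor gene Eif3m (0.50), Brcc3 (0.48) and the nuclear import gene Kpna3 (0.44), against Ewsr1 (-0.38) and Ddx39b (-0.37). Each of these had a limma adjusted p of 0.0021 or less.

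For Nras the most alike were 4933434E20Rik (0.45, limma adjusted p = 0.00028), Klhdc1 (0.39) and Snx14 (0.37), and the most opposed were the calcium-binding protein genes S100a6 (-0.36, adjusted p = 0.02) and S100a16 (-0.33), the latter not past the threshold (adjusted p = 0.062). 4933434E20Rik, S100a6 and S100a16 lie on chromosome 3, as Nras does. Of the 200 measured genes nearest to Nras, 100 on each side, 2 were called (1%), against 2 of 685 on the rest of chromosome 3 (0.292%) and 9 of 17891 on other chromosomes (0.0503%). Among the neighbours of Sos1 12 of 144 were called (8.33%, against 3.77% on other chromosomes), and among those of Rin1 28 of 160 (17.5%, against 10.1%), 27 of them positively. Neighbours of Rasa1 had 27 of 200 (13.5%, against 7.60%), 26 of them positively. For Rras (33% and 30.3%), Rras2 (4.5% and 5.07%), Mras (21% and 21.2%), Sos2 (10.5% and 12.6%), Nf1 (15.5% and 18.9%) and Shoc2 (3.42% and 2.18%) the shares lay closer together. Neighbouring genes are inherited together in a backcross and are not independent, so these shares carry no test.

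Within the pathway lists, Rras correlated with 18 of the 74 genes positively and with 7 negatively, against 15.8% and 14.3% of all genes, so that the total is close to the background. The strongest was Rasgrp3, an exchange factor of endothelial and B cells (0.72), followed by the effector genes Plce1 (0.68) and Rgl1 (0.67), Pde6d, which shuttles farnesylated Ras (0.61), and the adaptor gene Gab2 (0.60). The polarity gene Scrib (-0.42) and the effector gene Afdn (-0.40) went the other way. For Mras 16 were positive and 8 negative (12% and 9.23% of all genes), with Plce1 (0.58), Rasgrp3 (0.53) and Rgl1 (0.49) again the strongest. The M-Ras partner Scrib was negative here too (-0.39), and Shoc2 itself did not pass (r = 0.11, adjusted permutation p = 0.32). The Ras-related genes Rap1a and Rap1b were positive with both, Rap1b at 0.51 with Rras and 0.43 with Mras.

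Nf1 differed in direction, with 10 positive and 19 negative of the 74, against 10.4% and 8.66% of all genes. Positive relations included Plce1 (0.59), Abl1 (0.48) and Spred1, whose product brings neurofibromin to the membrane (0.41). Negative ones included Golga7, the partner subunit of the Ras palmitoyltransferase (-0.46), Rasgrp1, an exchange factor of T cells and keratinocytes (-0.43), and Ralb (-0.41). For Sos2 13 were positive and 3 negative (8.42% and 4.18% of all genes), led by Erbin and then Cul3 (0.35) and Gab2 (0.34). Rasa1 had 6 and 10 (4.9% and 2.8%), with Erbin and the GTPase gene Rala (0.43) positive and Ksr1, the MAP kinase scaffold, negative (-0.40).

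Rin1 had 7 positive and 8 negative relations among the 74 (6.29% and 3.91% of all genes). Its strongest negative relations were with Ppp1cb, the phosphatase subunit gene of the SHOC2 complex (-0.43), Rap1b (-0.38) and Rheb (-0.35), and its strongest positive ones with Araf (0.38), Rgl2 (0.34) and Scrib (0.34). Rras2 had 10 and 4 (3.62% and 1.27%), with Cul3 (0.39) and Rap1b (0.37) highest. Sos1 had 5 and 1 (2.87% and 0.899%). Shoc2 had 3 and 0 (1.56% and 0.611%), of which the strongest was Ppp1cb (0.36), the catalytic partner of the SHOC2 protein, and the others were Cul3 (0.27) and the depalmitoylase gene Lypla1 (0.27). Nras passed with none of the 74 in the limma fit, where 7 had an unadjusted p under 0.05 (0.0638% and 0.00532% of all genes were called).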

How the data were processed

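Tail skin RNA of 153 mice was hybridised to Affymetrix arrays as biotin-labelled cRNA, per the labels' protocols. The deposited values are log2 levels per probe set, made by the authors with RMA (background correction, normalization between arrays and summary of probes), per the submitters' processing notes. The version of RMA and any plate adjustment are not stated there. Both arrays labelled outliers (WT males, plate 2) were left out, leaving 151 (114 WT, 37 HET). The medians of the arrays lay between 4.67 and 4.89. Their number limits the precision. Each mouse is a separate animal.

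For each gene the probe set with the highest mean, among the 21201 annotated with a single symbol, was used. Differences and genes varying with a member were fitted with limma 3.58.1 (R 4.3.3; lmFit, eBayes with trend; genotype, sex and plate) over 18810 genes, with Benjamini-Hochberg adjustment and a threshold of 0.05, and checked on simulated data. Correlations used residuals after genotype, sex and plate and two-sided permutation tests with 100000 draws (scipy 1.17.1, numpy 2.4.6 and pandas 2.3.3 in Python 3.11.15), adjusted over 45 member pairs or 140 relations with marker scores. Figures were drawn with matplotlib 3.10.9. Promoters are from RefSeq. Of the pathway genes listed 74 were analysed, and the others were not used here. Named genes are the members, up to 3 called genes of each pathway list and comparison, and for each member the 3 most alike and 2 most opposed genes and the marker lists with the highest and lowest r. Relations named beyond these were picked after their values were seen. The members and lists were chosen with earlier results of these data known. The Hras transcript is not reported here. Alternatives covered scaling, arrays, probe sets, dim genes, covariates, plates, and the sexes or genotypes alone.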

Additional observations from a re-analysis of the deposited data

How the results depend on the processing

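No paired analysis was possible because replicate numbers in these groups only name separate mice. No alternative called a member for genotype (smallest adjusted p 0.5, largest difference 0.11 in size), and 125 of 139 values kept their sign. Signs turned for differences near 0: without plate 3 Rras 0.011, Sos2 -0.046, Rasa1 0.014, Rin1 -0.05 and Shoc2 0.014; without plate 1 Mras -0.0047 and Shoc2 0.0027; without plate 2 Mras -0.035; in females Rasa1 0.0042, Rin1 -0.015 and Shoc2 0.0067; in males Sos2 -0.025; and Sos2 with marker scores -0.0026 and without plate in the model -0.0033. For sex, signs turned for Nras in WT mice (-0.0029), for Sos2 with marker scores (-0.018), without plate 1 (-0.0079) and in HET mice (-0.027), and for Rasa1 with centred arrays (0.0089), quantile normalization (0.0069), without plate 3 (0.022) and in WT mice (0.00041). The causes were not tested. With marker scores 1 member was called for sex and with the first principal component 1, Rras in both. Pathway genes called for sex, 5 as deposited, were 2 with centred arrays, 2 with quantile normalization, 2 with marker scores, 1 without plate 1, 1 without plate 2, 3 without plate 3, 3 in WT mice and 0 in HET mice, which are fewer and where 4 had an unadjusted p under 0.05.

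The number of genes varying with a member moved with centred arrays to 1615 (Nras), 8631 (Rras), 2900 (Sos1), 2212 (Rasa1) and 2047 (Shoc2), with marker scores to 82 (Nras), 2406 (Rras), 697 (Mras), 384 (Sos1) and 937 (Rin1), and with the first principal component to 700 (Rras), 0 (Mras) and 994 (Rin1). Correlated member pairs rose from 12 to 23 with centred arrays. Of 132 values of the 12 pair correlations, 22 fell short of the threshold and 1 changed sign, Rras and Nf1 with the first principal component (-0.035). The pairs that lost their call in some setting were Rras with Mras and Nf1, Rras2 with Sos2 and Rin1, Mras with Nf1, Rasa1 with Sos2, Nf1, Rin1 and Shoc2, and Rin1 with Shoc2.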

Other observations

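Both arrays that the labels mark as outliers came from WT males of plate 2. Against the mean and SD of the mice used, Nf1 on one of these arrays was 6.50 on the log2 scale, a deviation of -4.0 SD. On the same array Rasa1 was 8.09 (-3.13 SD), Mras 5.82 (-3.08 SD) and Rras 8.20 (-3.01 SD), while Nras was 8.64 (0.73 SD) and Rin1 5.25 (-0.43 SD). On the other array Sos1 was 6.82 (-2.65 SD) and Shoc2 was 8.90 (1.61 SD).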
